A study of Mus musculus with 8 samples.

Results

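The genes described are the 3 D-type cyclins (Ccnd1, Ccnd2 and Ccnd3), their partner kinases Cdk4 and Cdk6, and 5 inhibitors of cyclin-dependent kinases (Cdkn1a, Cdkn1b, Cdkn1c, Cdkn2c and Cdkn2d). All 10 were found by symbol among the 55536 genes of the count table, and 8 of the 10 passed the filter on low counts. Cdk6 and Cdkn1c did not pass it and are given as raw counts. Poly(A) RNA was sequenced from alphaTC6, a mouse line labelled as alpha cells with WT genotype, 48 h after reverse transfection with RNAiMax Lipofectamine. The treated arm received pooled small interfering RNAs (siRNAs) that target Klf4, the gene of a zinc finger transcription factor, whereas the control arm received a scramble siRNA. The study asked which genes Klf4 regulates in cultured alpha cells. Each arm had 4 libraries that the design text calls biological replicates. Batch 1 held scramble replicates 1 and 2 with Klf4 siRNA replicates 1, 2 and 4, whereas batch 2 held scramble replicates 3 and 4 with Klf4 siRNA replicate 3. The labels do not say what distinguishes the batches.

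D-type cyclins bind CDK4 or CDK6, and the active kinase phosphorylates the retinoblastoma protein RB, which then releases E2F transcription factors and lets the cell enter S phase. The INK4 inhibitors, encoded here by Cdkn2c (p18) and Cdkn2d (p19), bind the kinase and keep the cyclin off. The CIP/KIP inhibitors, encoded by Cdkn1a (p21), Cdkn1b (p27) and Cdkn1c (p57), block CDK2 complexes and also take part in assembling cyclin D with its kinase. In pancreatic islets this pathway sets how often endocrine cells divide. The alphaTC lines come from a tumour of mice that carry the SV40 large T antigen under the glucagon promoter, so each is a line of transformed cells, and T antigen binds both RB and p53. KLF4 is known from gut epithelium as an activator of Cdkn1a and a repressor of Ccnd1.

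Klf4 itself was measured first. Values per library are given in the order of replicates 1 to 4, and CPM are counts scaled to a common library total after TMM normalization. Klf4 was at 39.2, 35.1, 46.3 and 46.8 CPM under scramble siRNA and 12.5, 11.5, 19.8 and 18.8 CPM under Klf4 siRNA. The groups did not overlap, and Klf4 RNA fell to 39.8% of control (log2 fold change -1.33, SE 0.17, adjusted p = 0.0083, edgeR quasi-likelihood test with Benjamini-Hochberg adjustment). Without scramble replicate 1 the adjusted p of Klf4 was 0.052 at a log2 fold change of -1.27, and in batch 1 alone it was 0.104 at -1.39 (edgeR). Library totals ran from 45954151 to 64185987 counts, and the first principal component of the libraries, with 59.9% of the variance, separated the batches. All 7 alpha cell markers were measured, with a summed level of 4877 to 12969 CPM in scramble and 4704 to 11663 CPM in Klf4 siRNA libraries. That range follows Gcg, the glucagon gene, which was higher in batch 2 (log2 2.80). Of the 6 beta cell markers, Ins1, Ins2, Pdx1 and Ucn3 had 0 counts in every library and the list summed to at most 3.85 CPM. The summed markers reached at most 0.057 CPM for delta cells, 0.183 CPM for PP cells, 0.437 CPM for endothelial cells, 2.50 CPM for immune cells and 22.1 CPM for fibroblasts, the last almost all Col1a2.

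After Klf4 siRNA, the D-type cyclins Ccnd2 and Ccnd3 and the INK4 inhibitor Cdkn2c rose, and none of the 8 tested genes fell. The call of Cdkn2c was lost in 10 of 17 alternative analyses (adjusted p up to 0.209, edgeR), whereas Ccnd2 and Ccnd3 kept theirs in all of them. The rises were 47.3% for Ccnd2, 25.9% for Ccnd3 and 7.22% for Cdkn2c. Of all 16333 genes tested, 11.7% passed the same threshold (edgeR, adjusted p under 0.05), 4.88% higher and 6.81% lower. The members' median log2 fold change was 0.080, beside 4.3e-05 over all genes tested. Without adjustment, 5 of the 8 had a p under 0.05, beside 23.9% of all genes tested, as Cdkn1a and Cdkn1b joined them, both in the direction of a rise, and DESeq2 and limma-voom called no member lower either. The treatment difference had the same sign within both batches for 7 of the 8, all but Cdkn2d, beside 64.8% of all genes tested. P-values measure the spread between these libraries, and in bulk RNA a change in the number of cells of a kind and a change in RNA per cell cannot be told apart.

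**Figure D1:**
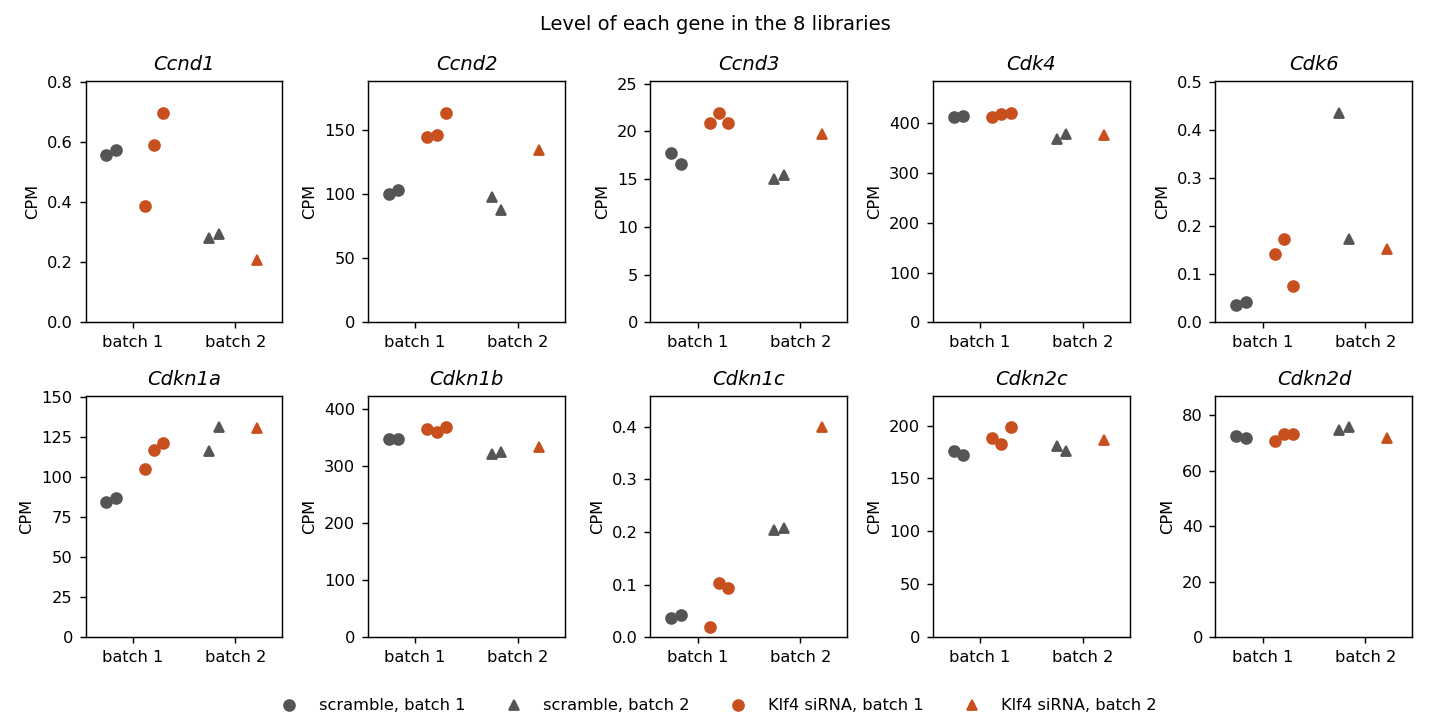
Level of each of the 10 genes in CPM (vertical axes, each from 0) in every library, with scramble in grey, Klf4 siRNA in orange, batch 1 as circles and batch 2 as triangles. Ccnd2, Ccnd3 and Cdkn2c show every Klf4 siRNA library above every scramble library, and Cdkn1b does so only within each batch. Ccnd1, Cdk4, Cdkn1b and Cdkn1c separate by batch.

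Set per length, the kinase Cdk4 and the inhibitors Cdkn1b and Cdkn2c were the most abundant and Cdk6 the least. Expressed as CPM per kilobase of exon, the scramble means were 121.3 ± 7.19 for Cdk4, 73.8 ± 3.12 for Cdkn1b, 65.6 ± 1.35 for Cdkn2c and 46.8 ± 1.22 for Cdkn2d (SD, n = 4 each). Next in the order came, in CPM per kilobase, 29.5 ± 6.42 for Cdkn1a, 10.3 ± 0.722 for Ccnd2, 1.84 ± 0.138 for Ccnd3 and 0.0904 ± 0.0340 for Ccnd1 (SD, n = 4 each). Cdkn1c at 0.0599 ± 0.0470 and Cdk6 at 0.0123 ± 0.0134 CPM per kilobase closed it (SD, n = 4 each). Down to Ccnd1, no pair of neighbours in this order overlapped over the scramble libraries, and the closest such pair was Cdkn1b with Cdkn2c at a ratio of means of 1.13. Ccnd1 with Cdkn1c and Cdkn1c with Cdk6 did overlap, so their order is not set by these data. With the longest transcript as gene length the order of the means was the same, but 2 further pairs overlapped over the scramble libraries. These were Cdkn1b with Cdkn2c, at means of 73.8 and 71.3 CPM per kilobase, and Cdkn2d with Cdkn1a, at 51.8 and 50.4 CPM per kilobase.

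**Figure D2:**
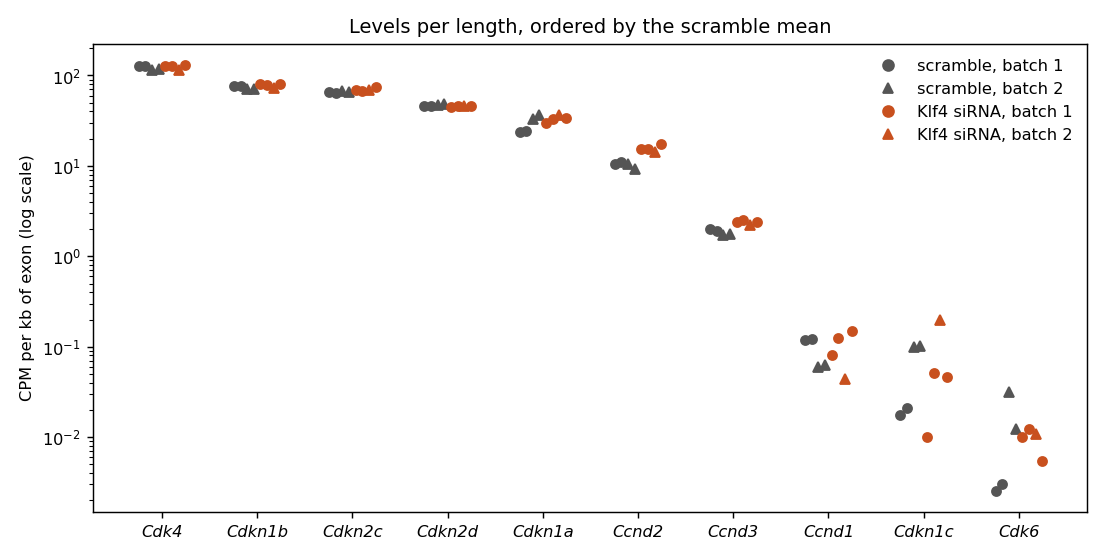
Level per length in CPM per kilobase of exon (log scale) for the 10 genes, ordered by the scramble mean, with a point for each library. Cdk4 lies at the top at a mean of 121.3 and Cdk6 at the bottom at 0.0123, and only the 3 lowest genes have scramble ranges that overlap a neighbour.

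Cyclin D2, encoded by Ccnd2 (ENSMUSG00000000184, chr6:127125162-127152193 of GRCm38, minus strand, up to 5 exons per transcript), is the D-type cyclin best known for islet cell growth. Its level was 100.04, 104, 97.7 and 87.7 CPM under scramble siRNA. Under Klf4 siRNA it was 144, 146, 134 and 164 CPM. Every Klf4 siRNA library lay above every scramble library, and in batch 1 the gap between the groups was wider than the spread inside either. Batch 2 has a single Klf4 siRNA library, so that group has no spread there. The log2 fold change was 0.56 (SE 0.05, adjusted p = 3.51e-06, edgeR), from 97.2 ± 6.79 to 147 ± 12.2 CPM (SD, n = 4 each). It was 0.57 within batch 1 and 0.54 within batch 2, as differences of mean log2 CPM. Ccnd2 ranked 101 by size of rise among the 16333 genes tested and kept its call in all 17 alternative analyses, with log2 fold changes from 0.52 to 0.60. The annotations on the opposite strand that overlap its exons, Gm43126 and 9330179D12Rik, reached at most 14 counts in a library.

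Cyclin D3, encoded by Ccnd3 (ENSMUSG00000034165, chr17:47505051-47599691 of GRCm38, plus strand, up to 7 exons), is the D-type cyclin expressed most widely in adult tissues. Its level was 17.7, 16.5, 15.01 and 15.4 CPM under scramble siRNA and 20.9, 22.0, 19.7 and 20.9 CPM under Klf4 siRNA. The groups did not overlap, and the lowest Klf4 siRNA value belonged to the batch 2 library. The log2 fold change was 0.33 (SE 0.05, adjusted p = 7.09e-05, edgeR), with 0.31 within batch 1 and 0.37 within batch 2, and all 17 alternatives kept the call. The exons of Ccnd3 overlap those of Bysl on the opposite strand, and the use of strand in counting was not given in the sources used here. Bysl itself was measured at a log2 fold change of -0.014 (adjusted p = 0.851, edgeR).

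Ccnd3 has 2 start sites in the RefSeq promoter table (GRCm38.p6, 250 bases before to 50 after the start), and both stretches are printed because this gene rose and CACCC, with its complement GGGTG, is the core of the element that Krüppel-like factors bind. Capitals mark CACCC on either strand, and sequences run 5′ to 3′ along the gene's strand.
Ccnd3, chr17:47504801-47505100, plus strand: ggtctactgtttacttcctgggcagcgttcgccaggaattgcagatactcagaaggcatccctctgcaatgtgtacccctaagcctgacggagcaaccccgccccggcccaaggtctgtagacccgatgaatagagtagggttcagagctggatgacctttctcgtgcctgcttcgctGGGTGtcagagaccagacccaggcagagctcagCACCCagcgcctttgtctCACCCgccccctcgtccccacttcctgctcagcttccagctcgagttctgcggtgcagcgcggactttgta
Ccnd3, chr17:47593217-47593516, plus strand: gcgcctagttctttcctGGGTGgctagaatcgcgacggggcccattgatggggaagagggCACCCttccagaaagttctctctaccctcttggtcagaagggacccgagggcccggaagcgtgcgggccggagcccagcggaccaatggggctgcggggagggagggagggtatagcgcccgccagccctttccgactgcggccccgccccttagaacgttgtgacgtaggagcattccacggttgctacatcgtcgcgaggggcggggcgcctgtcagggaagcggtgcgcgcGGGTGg
Each of the stretches holds 3 matches. Of all 32851 promoters in the table, 57.5% hold at least 1 match, with a median of 1, and 8 of the 10 promoters given for 7 of the genes do. A match is a string of letters only and says nothing of binding. Ccnd1, Ccnd2 and Cdkn1c had no entry.

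Cyclin D1, encoded by Ccnd1 (ENSMUSG00000070348, chr7:144929931-144939925, minus strand, up to 5 exons), had the lowest level per kilobase of the 3. It had 31, 27, 18 and 17 under scramble siRNA and 19, 34, 11 and 37 under Klf4 siRNA, as raw counts. The treatment groups overlapped, whereas the 3 batch 2 libraries held the 3 lowest counts. The treatment log2 fold change was -0.11 (SE 0.24, adjusted p = 0.848, edgeR), and its sign turned to 0.16 with no batch term. With at most 37 counts in a library and an SE of 0.24, a change of the size seen for Ccnd3 (log2 0.33) could have been missed. Ccnd1 shares exon sequence with LTO1 on the opposite strand, which had up to 858 counts in a library. Matched on either strand, 21.6% of the 50-base words of Ccnd1 transcripts also occur in 1 other gene. The share found in other genes was 24.9% for Cdkn1c and 17.0% for Cdk4.

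The rise of Ccnd2 and Ccnd3 moved the summed level of the 3 D-type cyclins without changing which of them dominated. The sum was 12.8, 13.0, 12.15 and 11.1 CPM per kilobase under scramble siRNA and 17.8, 18.15, 16.6 and 19.9 under Klf4 siRNA, so that the groups did not overlap. Ccnd2 held 84.2% ± 0.960 of the sum in scramble and 86.3% ± 0.749 in Klf4 siRNA libraries (SD, n = 4 each), with a range of 83.3% to 87.3% over all 8 libraries. Ccnd3 held 15.03% ± 0.880 and 13.2% ± 0.835, and Ccnd1 0.728% ± 0.235 and 0.54% ± 0.219 (SD, n = 4 each). With the longest transcript as the length, the scramble shares were 78.1% for Ccnd2 and 21.3% for Ccnd3.

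**Figure D3:**
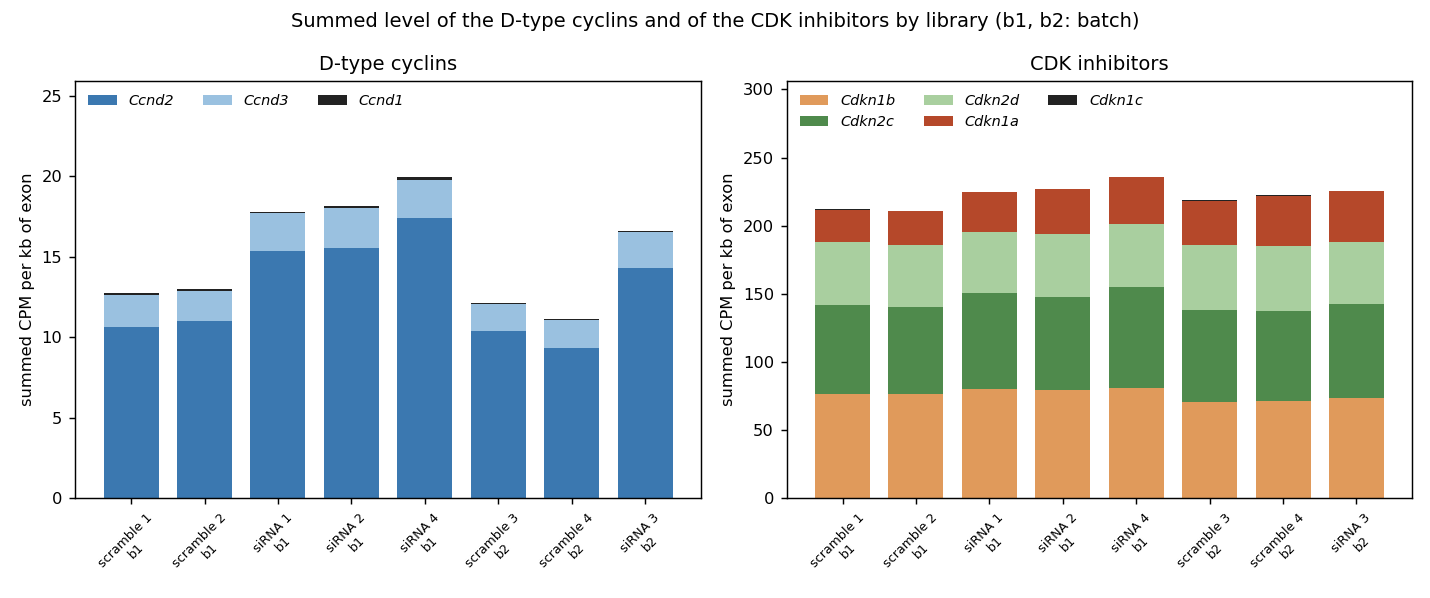
Summed level in CPM per kilobase of exon for the D-type cyclins (left) and the CDK inhibitors (right), 1 bar per library, ordered by batch and treatment and coloured by gene. The cyclin bars of the Klf4 siRNA libraries (16.6 to 19.9) stand above those of the scramble libraries (11.1 to 13.0), and Ccnd2 fills most of every bar.

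Of the kinase partners, Cdk4 alone was expressed at a level that could be tested. Cdk4 (ENSMUSG00000006728, chr10:127063534-127067920, plus strand, up to 8 exons) was at 413, 415, 369 and 379 CPM under scramble siRNA and at 413, 419, 376 and 422 CPM under Klf4 siRNA. The treatment groups overlapped, while the 3 batch 2 libraries were the 3 lowest. The log2 fold change with treatment was 0.010 (SE 0.026, adjusted p = 0.875, edgeR) and ranged from 0.0063 to 0.047 over the alternatives. Exons of Cdk4 overlap those of Tspan31 on the opposite strand, which reached 5068 counts in a library and had a log2 fold change of -0.057 (adjusted p = 0.294, edgeR).

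The Cdk4 promoter is printed beside those of Ccnd3 because it holds 4 matches to CACCC, the most among the 10 promoters, at a gene that did not pass the treatment test. Capitals again mark CACCC on either strand.
Cdk4, chr10:127063285-127063584, plus strand: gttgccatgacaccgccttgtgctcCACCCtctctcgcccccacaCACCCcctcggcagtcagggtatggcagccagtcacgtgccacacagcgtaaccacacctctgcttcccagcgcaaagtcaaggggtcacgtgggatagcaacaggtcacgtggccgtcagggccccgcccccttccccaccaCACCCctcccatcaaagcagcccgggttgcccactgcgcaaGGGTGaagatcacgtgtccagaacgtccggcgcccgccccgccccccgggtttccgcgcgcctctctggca
It is also given by RefSeq on GRCm38.p6.

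Cdk6 (ENSMUSG00000040274, chr5:3341485-3531008, plus strand) had 2, 2, 28 and 10 counts under scramble siRNA and 7, 10, 8 and 4 under Klf4 siRNA. The single library with 28 counts, scramble replicate 3, stood apart from the rest, and Cdk4 made up 99.99% of the summed level of both kinases per kilobase in each arm. With no filter on low counts, Cdk6 had a treatment log2 fold change of 0.11 (SE 0.43, adjusted p = 0.958, edgeR).

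Among the CIP/KIP inhibitors, Cdkn1a (ENSMUSG00000023067, chr17:29090976-29100727, plus strand, up to 3 exons), which encodes p21, a well-known p53 target, differed between the batches and, in batch 1, between the treatments. Its level was 84.6 and 87.0 CPM in the batch 1 scramble libraries and 105, 117 and 121 CPM in the batch 1 Klf4 siRNA libraries. In batch 2, scramble replicates 3 and 4 were at 116.5 and 131.25 CPM and Klf4 siRNA replicate 3 at 131.17 CPM. The treatment groups were apart within batch 1, as they were for 37.5% of all genes tested, whereas in batch 2 the single Klf4 siRNA library lay between the scramble libraries. Over all libraries the log2 fold change was 0.30 (SE 0.09, adjusted p = 0.117, edgeR), with 0.41 within batch 1 and 0.085 within batch 2. The interaction of batch and treatment was -0.33 (SE 0.11, unadjusted p = 0.0124, adjusted p = 0.999, edgeR). Cdkn1a was the only member with an unadjusted interaction p under 0.05, a threshold that 3.31% of all tested genes met, and 0 of 16333 genes had an adjusted interaction p under 0.05 by edgeR, DESeq2 or limma-voom. With no filter on low counts, 17 genes passed, Cdkn1a among them (-0.34, adjusted p = 0.0048, edgeR). In 6 of 17 alternatives the treatment change of Cdkn1a passed the threshold. With all 8 libraries kept, these were the Wald test of DESeq2 (adjusted p = 0.0166), limma-voom (adjusted p = 0.011) and library size alone (adjusted p = 0.041, edgeR), at log2 0.29 to 0.30. With libraries left out, they were batch 1 alone (log2 0.41, adjusted p = 0.00025, edgeR), the fit without Klf4 siRNA replicate 3 (log2 0.42, adjusted p = 0.0041, edgeR) and the one without scramble replicate 4 (log2 0.34, adjusted p = 0.0266, edgeR). Over all 17 the adjusted p ran up to 0.665, with no batch term (edgeR).

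The upstream start of Cdkn1a in RefSeq (GRCm38.p6) is printed because its promoter carries the p53 core spacing, CATG followed by 6 bases and a second CATG, which reads the same on both strands. Capitals mark both copies of CATG.
Cdkn1a, chr17:29090729-29091028, plus strand: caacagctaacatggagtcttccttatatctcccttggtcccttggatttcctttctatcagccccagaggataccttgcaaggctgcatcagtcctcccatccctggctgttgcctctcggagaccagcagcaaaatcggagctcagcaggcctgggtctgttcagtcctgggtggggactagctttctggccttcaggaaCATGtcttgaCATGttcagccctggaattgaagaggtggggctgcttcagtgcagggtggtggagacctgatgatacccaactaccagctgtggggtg
This spacing occurs in 234 of the 32851 promoters, or 0.712%, and in 1 of the 10 promoters of the cyclin, kinase and inhibitor genes. None of the 7 promoters given for the other p53 target genes listed further on holds it.

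Cdkn1b, which encodes p27 (ENSMUSG00000003031, chr6:134920401-134925513, plus strand, up to 4 exons), had the highest mean per kilobase of the 5 inhibitors. Its level was 348, 349, 322 and 326 CPM under scramble siRNA and 366, 361, 334 and 369 CPM under Klf4 siRNA. Within each batch the Klf4 siRNA values were the higher ones, but over all libraries the groups overlapped through the batch 2 library. The log2 fold change was 0.060 (SE 0.026, adjusted p = 0.165, edgeR). Cdkn1c, an imprinted gene that encodes p57 (ENSMUSG00000037664, chr7:143458339-143461050, minus strand), had 2, 2, 13 and 12 counts under scramble siRNA and 1, 6, 21 and 5 under Klf4 siRNA. The 3 batch 2 libraries were the 3 highest. Without the filter, its treatment log2 fold change was 0.93 (SE 0.46, adjusted p = 0.310, edgeR).

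Of the INK4 inhibitors, Cdkn2c rose slightly. Cdkn2c (ENSMUSG00000028551, chr4:109660876-109667189, minus strand, up to 3 exons) was at 176, 172, 181 and 176 CPM under scramble siRNA and at 188, 183, 186 and 198 CPM under Klf4 siRNA. The groups did not overlap, with the highest scramble library at 180.8 and the lowest Klf4 siRNA library at 182.75 CPM. The log2 fold change was 0.10 (SE 0.03, adjusted p = 0.0319, edgeR), with 0.12 within batch 1 and 0.061 within batch 2. This call was lost in 10 of 17 alternatives, in which the log2 fold change stayed between 0.078 and 0.12. These included no batch term (adjusted p = 0.177, edgeR), the replicate block instead of the batch term (adjusted p = 0.072, edgeR) and the fits without scramble replicate 1 (adjusted p = 0.120, edgeR) or 2 (adjusted p = 0.209, edgeR) or without Klf4 siRNA replicate 1, 3 or 4 (adjusted p = 0.059, 0.054 and 0.0506, edgeR).

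The promoter at the upstream RefSeq start of Cdkn2c is printed as the third gene that rose, with its 1 match to CACCC in capitals. It too comes from the RefSeq table on GRCm38.p6.
Cdkn2c, chr4:109666707-109667006, minus strand: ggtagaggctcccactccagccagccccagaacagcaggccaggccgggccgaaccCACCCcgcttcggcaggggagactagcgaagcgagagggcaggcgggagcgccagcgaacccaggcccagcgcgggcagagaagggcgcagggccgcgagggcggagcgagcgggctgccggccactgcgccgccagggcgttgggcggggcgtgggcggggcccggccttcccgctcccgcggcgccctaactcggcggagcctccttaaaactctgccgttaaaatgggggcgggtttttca

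Cdkn2d (ENSMUSG00000096472, chr9:21288410-21291407, minus strand, up to 3 exons) was at 72.4, 71.7, 74.9 and 75.7 CPM under scramble siRNA and at 70.7, 73.2, 71.7 and 73.2 CPM under Klf4 siRNA. The groups overlapped, with a log2 fold change of -0.021 (SE 0.030, adjusted p = 0.747, edgeR). Treatment groups that did not overlap over the 8 libraries were thus seen for 3 of the 8 tested members, beside 10.5% of all genes tested.

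The inhibitors summed to 215.8 ± 5.47 CPM per kilobase in scramble and 228.1 ± 5.01 in Klf4 siRNA libraries (SD, n = 4 each). The scramble sums ran from 210.7 to 222.2 and the Klf4 siRNA sums from 224.7 to 235.5 CPM per kilobase, without overlap. With the longest transcript as gene length these sums did overlap, at 238.4 to 259.2 under scramble and 256.5 to 271.1 CPM per kilobase under Klf4 siRNA. In scramble libraries Cdkn1b made up 34.2% of the sum, Cdkn2c 30.4%, Cdkn2d 21.7%, Cdkn1a 13.6% and Cdkn1c 0.0274%. The 2 INK4 genes outside the set were also present, with Cdkn2a at 159.1 ± 5.86 and 153.8 ± 7.57 CPM in scramble and Klf4 siRNA libraries and Cdkn2b at 15.4 ± 1.81 and 15.9 ± 1.60 CPM (SD, n = 4 each). Neither passed the treatment test, with log2 fold changes of -0.073 for Cdkn2a (adjusted p = 0.121, edgeR) and -0.017 for Cdkn2b (adjusted p = 0.910, edgeR). Cdkn2a counts join p16 with ARF, which share exons. Per kilobase of exon, the scramble means were 135.8 CPM for Cdkn2a and 11.1 CPM for Cdkn2b. The mean of Cdkn2a thus lay above that of Cdkn1b, the highest inhibitor of the set, at 73.8 CPM per kilobase.

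The batches differed at 6 of the 8 tested genes. Of them, 5 were lower in batch 2 and 1 was higher, beside 15.9% and 16.8% of all genes tested (32.7% in either direction, edgeR, adjusted p under 0.05). With library size alone in place of TMM, 2111 of the 5427 batch calls over all genes were higher in batch 2, against 2747 of 5343 with TMM, and the same 6 members were called. Without Klf4 siRNA replicate 3, the count of members called fell to 3 (Ccnd1, Cdk4 and Cdkn1a). Ccnd1 was 2.18-fold lower in batch 2 (log2 -1.12, SE 0.26, adjusted p = 0.0024, edgeR), at 0.560 ± 0.112 CPM in the 5 libraries of batch 1 and 0.261 ± 0.0457 CPM in the 3 of batch 2 (SD). Cdk4 was lower by a log2 of -0.15 (SE 0.03, adjusted p = 0.00026, edgeR) and Cdkn1b by -0.11 (SE 0.03, adjusted p = 0.0025, edgeR). For these 3 genes the batches did not overlap, which held for 29.4% of all genes tested. Ccnd2 (-0.15, adjusted p = 0.0256, edgeR) and Ccnd3 (-0.14, adjusted p = 0.0299, edgeR) were lower by about as much on the log2 scale, although their batches overlapped through the treatment.

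Cdkn1a was the 1 tested member higher in batch 2, by 1.31-fold (log2 0.39, SE 0.09, adjusted p = 0.0258, edgeR). Its batch call was lost when scramble replicate 1, 2 or 3 or Klf4 siRNA replicate 1 was left out, and with no filter, with adjusted p from 0.0505 to 0.0845 (edgeR). Ccnd2 lost its batch call without scramble replicate 2 or 4 or Klf4 siRNA replicate 3, Ccnd3 without scramble replicate 1 or 3 or Klf4 siRNA replicate 3, and Cdkn1b without Klf4 siRNA replicate 3, the only such library of batch 2. Ccnd1 and Cdk4 kept theirs in every alternative that could test them. Cdkn2c (log2 0.0081, SE 0.031, adjusted p = 0.875, edgeR) and Cdkn2d (log2 0.031, SE 0.031, adjusted p = 0.496, edgeR) did not pass the batch test. Of the genes under the filter, Cdkn1c was higher in batch 2 when the filter was left off (log2 2.36, adjusted p = 4.66e-06, edgeR). For Cdk6 the same fit gave a log2 of 1.47 (adjusted p = 0.0047, edgeR), but its batches overlapped, since apart from the 28 counts of scramble replicate 3 the batch 2 libraries had 10 and 8 counts and those of batch 1 up to 10. Gcg and the alpha cell markers Irx1 and Ttr were higher in batch 2 as well, and their part in these batch differences was not tested.

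**Figure D4:**
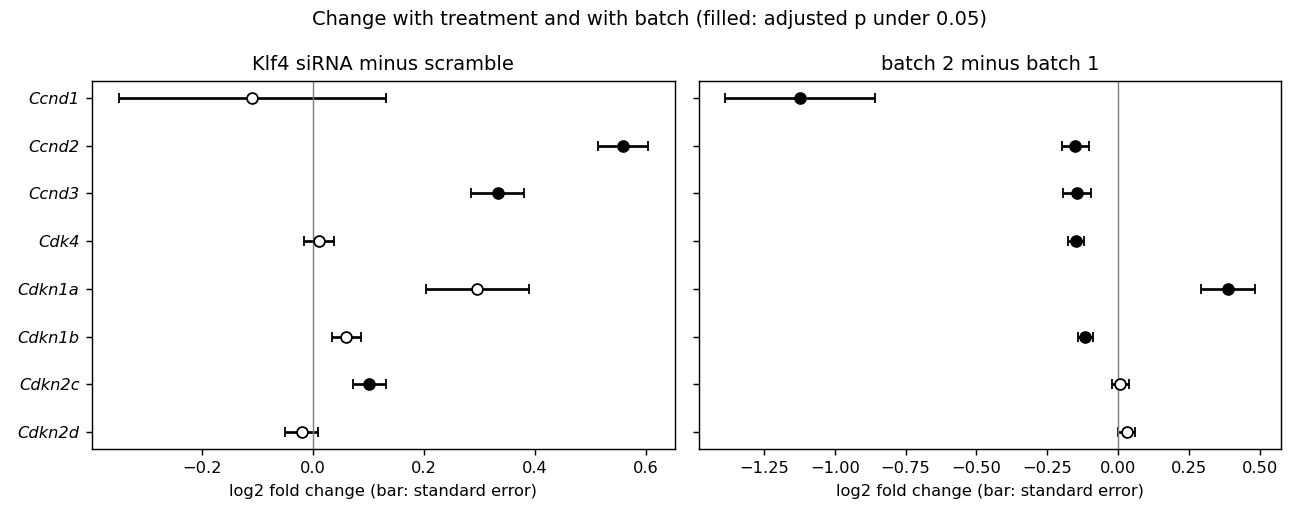
Log2 fold change with its standard error for the 8 tested genes, with Klf4 siRNA minus scramble on the left and batch 2 minus batch 1 on the right, and filled points for adjusted p under 0.05 (edgeR). Ccnd2 lies farthest to the right for treatment at 0.56, and Ccnd1 farthest to the left for batch at -1.12.

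The profile of Ccnd2 over the 8 libraries was compared with that of 12721 other genes as the mean absolute difference of centred log2 CPM. The closest were Slc4a7, a bicarbonate transporter, at 0.0659, Trp53inp1, a p53-induced stress protein, at 0.0667 and Arl5b, a small GTPase, at 0.0687. For Ccnd1, the member with the largest batch difference, the closest were Dio2, the activating thyroid hormone deiodinase, at 0.0989, Slc38a3, a glutamine transporter, at 0.143 and Ces5a, a carboxylesterase, at 0.144. Dio2, Slc38a3 and Ces5a had batch log2 differences of -0.93, -0.77 and -1.21.

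Most genes that act next to cyclin D and its kinases did not pass the treatment test, and those that did lay on both sides of 0. The counts of each list stand beside 4.88% higher and 6.81% lower over all genes tested, and several lie near those shares. Among 6 genes of the next step, the E-type and A-type cyclins with CDK2 and CDK1, 2 rose and 2 fell (median log2 0.060). Ccne2, one of the E-type cyclins that activate CDK2, stood at 60.5 ± 2.23 CPM under scramble and 77.1 ± 5.24 CPM under Klf4 siRNA (SD, n = 4 each) and rose by 0.32 on the log2 scale (SE 0.04, adjusted p = 3.37e-06, edgeR). Its paralogue Ccne1 fell by 0.11 on the log2 scale (adjusted p = 0.0155, edgeR), from 72.4 ± 1.59 to 66.5 ± 1.58 CPM (SD, n = 4 each). Ccna2, the cyclin of S phase, rose (log2 0.17, adjusted p = 0.00069, edgeR) and Cdc25a, the phosphatase that activates CDK2, fell (log2 -0.11, adjusted p = 0.0149, edgeR). The members of a pair of E-type cyclins thus lay on opposite sides of 0.

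The RB family and the E2F factors with their partners gave 2 higher and 4 lower of 13 tested, with a median log2 of -0.0063. E2f8, an atypical repressor E2F, fell (log2 -0.19, adjusted p = 0.00017, edgeR), as did the E2F partner Tfdp2 (log2 -0.21, adjusted p = 0.00044, edgeR) and the activator E2f3 (log2 -0.14, adjusted p = 0.0127, edgeR). E2f5, a repressor E2F, rose (log2 0.24, adjusted p = 0.0234, edgeR). The 14 E2F target genes of S phase had a median log2 of -0.013. Among them, the thymidine kinase gene Tk1 rose (log2 0.21, adjusted p = 0.00053, edgeR), while the Mcm helicase genes, Pcna and the ribonucleotide reductase genes did not pass the test.

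Among 12 transcriptional regulators of these genes, 1 rose and 2 fell (median log2 -0.035). Foxo3, a forkhead factor known to activate Cdkn1b and repress D-type cyclins, fell from 57.2 ± 1.83 to 46.4 ± 2.39 CPM (SD, n = 4 each; log2 -0.31, SE 0.04, adjusted p = 1.01e-05, edgeR). Its relative Foxo1 rose (log2 0.16, adjusted p = 0.0026, edgeR), and Men1, which encodes menin, an activator of Cdkn1b and Cdkn2c in endocrine cells, fell (log2 -0.16, adjusted p = 0.0033, edgeR). Among 16 genes of turnover, assembly and activation, 1 rose and 2 fell (median log2 0.010). Fbxw7, the ubiquitin ligase subunit that targets cyclin E, rose (log2 0.15, adjusted p = 0.0395, edgeR). Ddb1, an adaptor of CUL4 ligases, fell (log2 -0.099, adjusted p = 0.0193, edgeR), as did Cks1b, the SKP2 cofactor in p27 degradation (log2 -0.13, adjusted p = 0.0419, edgeR).

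Of 9 p53 target genes other than Cdkn1a, 8 were tested, of which 2 rose and the other 6 did not pass the test, with a median log2 of 0.15. Trp53inp1 rose from 152 ± 8.82 to 236 ± 19.5 CPM (SD, n = 4 each; log2 0.59, SE 0.03, adjusted p = 8.88e-11, edgeR). Ccng1, which encodes cyclin G1, rose from 73.2 ± 1.62 to 97.4 ± 5.05 CPM (SD, n = 4 each; log2 0.39, SE 0.03, adjusted p = 4.63e-08, edgeR). Mdm2, the p53 ubiquitin ligase and a common readout of p53 activity, did not pass the test (log2 0.065, SE 0.029, adjusted p = 0.174, edgeR), nor did Bax (log2 0.0053, adjusted p = 0.953, edgeR). The list was chosen with earlier results of these libraries in view, so its counts describe them only. Of the genes of these lists named as having risen or fallen, Ccne2, E2f8, Tfdp2, Foxo3, Tk1, Trp53inp1 and Ccng1 kept the call in all 17 alternatives, and none of those named changed direction. Leaving out a single library ended the call of Ccne1 (scramble replicate 1 or 2 or Klf4 siRNA replicate 3), Cdc25a (scramble replicate 1 or 2), E2f3 (scramble replicate 2 or Klf4 siRNA replicate 3) and E2f5 (scramble replicate 1 or Klf4 siRNA replicate 2 or 3). For Ddb1 this held for scramble replicates 1 to 3 and Klf4 siRNA replicates 1 and 3, and for Fbxw7 and Cks1b for every library but 1 each (scramble replicate 4 and Klf4 siRNA replicate 2). In these fits the adjusted p reached 0.151 for Ccne1, 0.0965 for Cdc25a, 0.112 for E2f3, 0.207 for E2f5, 0.130 for Ddb1, 0.2105 for Fbxw7 and 0.269 for Cks1b (edgeR). Men1 lost its call with no batch term (adjusted p = 0.568, edgeR) and with the replicate block (adjusted p = 0.067, edgeR). Foxo1 and Ccna2 lost theirs with no batch term (adjusted p = 0.155 and 0.0516, edgeR).

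**Figure D5:**
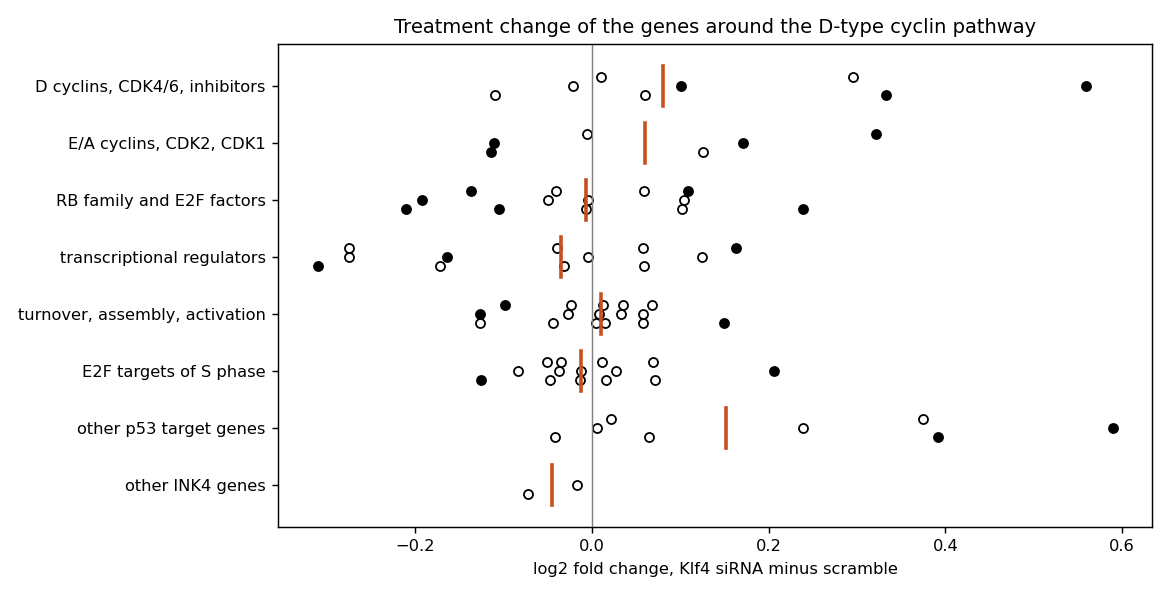
Log2 fold change (Klf4 siRNA minus scramble) of each tested gene in the cyclin D set and 7 lists around it, filled where the adjusted p was under 0.05 (edgeR), with the orange bar at the list's median. Medians lie between -0.045 and 0.15, and every list with more than 2 tested genes has points on both sides of 0.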

How the data were processed

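Poly(A) RNA of 8 alphaTC6 libraries was measured. The authors deposited whole-number counts per gene, not normalized, in 1 table. Trimming with cutadapt is known from the table's name. The submitters' processing notes name FastQC, STAR, featureCounts and DESeq2 and the build mm10, with no versions or roles, and the design text names edgeR with batch correction. The use of strand is not given in the sources used here. The extraction text speaks of isolated islets, whereas each sample is labelled as the cell line. All 55536 gene identifiers matched GENCODE release M21 (GRCm38), 0 count columns stayed unmapped and no count lacked a gene name. Samples were grouped by the treatment in their titles and by the batch label.

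The members and lists were chosen with earlier results of these data known. Genes were kept with filterByExpr (16333), and library sizes were scaled with TMM (factors 0.964 to 1.02). With edgeR 4.0.16 in R 4.3.3, batch and treatment were fitted by robust quasi-likelihood over all 8 libraries (5 residual degrees of freedom), with two-sided p-values adjusted by Benjamini-Hochberg over all tested genes and a threshold of 0.05. The interaction of batch and treatment had a fit of its own. The standard error of a log2 fold change is its size over the square root of the F statistic. CPM use TMM-scaled library sizes, within-batch changes use log2 CPM with a prior count of 2, and levels per kilobase divide by the union of exons. The fit was tested on simulated data.

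The named genes are all members, Klf4, Cdkn2a, Cdkn2b, at most 4 genes past the threshold from each of 7 lists (smallest adjusted p) and the 3 closest profiles (mean of at least 1 CPM) to the members with the largest treatment and batch changes. A result for 1 gene of the lists is not reported here. Genes overlapping a member and cell type markers are given beside them. Depth was 45954151 to 64185987 counts per library, counts include any PCR duplicates, and the error terms rest on the spread between libraries. No pair of libraries agreed within sampling noise (chi-square per degree of freedom at least 10.2). Alternatives were no batch term, a replicate block, batch 1 alone, DESeq2 1.42.0 size factors and Wald test, library size alone, limma-voom (limma 3.58.1), no filter, a minimum mean of 5 CPM, omission of each library, and the longest transcript as gene length. The same alternatives were run for the named genes of the lists after the data were seen.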

Additional observations from a re-analysis of the deposited data

Results flagged for a closer look

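In 62 groups of 4 libraries examined for the named genes, 2 had a library set apart from its group by more than Dixon's critical gap, where chance gives about 1 in 20, or 3.1. Cdc25a in scramble replicate 4 was the lowest of its group at 79.8 CPM, with the next library at 82.3 CPM and a gap of 0.877 of the range. E2f3 in scramble replicate 2 was the highest of its group at 48.3 CPM, with the next at 47.0 CPM and a gap of 0.914. No cyclin D, CDK4/6 or CDK inhibitor gene was set apart in this way.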

How the results depend on the processing

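Over all genes, the 1909 treatment calls became 409 with no batch term, 1220 with the replicate block instead of the batch term, 1232 in batch 1 alone and 934 to 2021 with 1 library left out. Libraries with the same number, each centred on its group, had correlations of 0.49, 0.42 and 0.72 for replicates 1 to 3, which share a batch, and -0.34 for replicates 4, which do not. After removal of the batch difference they were -0.00053, -0.040, -0.30 and 0.12, so the numbers were not taken to pair the libraries. With the block in place of the batch term, Cdkn2c lost its call (adjusted p = 0.072, edgeR), as it did with no batch term and no block, and no other member's call changed. The interaction gave 0 calls by edgeR (540 genes at an unadjusted p under 0.05), 17 with no filter, where Cdkn1a was the 1 member called (-0.34, adjusted p = 0.0048, edgeR), and 0 to 13 with 1 library left out. It could not be fitted without Klf4 siRNA replicate 3. Members called for batch numbered 3 to 7 with 1 library left out. Members called for treatment numbered 2 to 4 over all alternatives. Signs turned only in changes that had not passed the test. For treatment these were Ccnd1 (0.16 with no batch term, 0.12 with the replicate block, 0.021 without Klf4 siRNA replicate 1, in a left-out range of -0.26 to 0.021), Cdkn2d (0.0037 in batch 1 alone, 0.0063 without Klf4 siRNA replicate 3, in a left-out range of -0.033 to 0.0063) and Cdkn2b (0.042 with no batch term, 0.043 with the replicate block, 0.0056 and 0.019 without scramble or Klf4 siRNA replicate 4, in a left-out range of -0.054 to 0.019). For batch they were Cdkn2c (-0.029 with library size alone, and -0.0083, -0.010 and -0.0024 without scramble replicate 2 or 3 or Klf4 siRNA replicate 2, in a left-out range of -0.010 to 0.035) and Cdkn2d (-0.0073 with library size alone). With the longest transcript as length, scramble shares were 78.1% for Ccnd2, 21.3% for Ccnd3, 20.3% for Cdkn1a, 29.9% for Cdkn1b, 28.9% for Cdkn2c and 20.9% for Cdkn2d. These shares differ from those per union of exons only through the gene length used, and the cause of the other shifts was not tested. Counts under 40 in each library limit what can be said of Ccnd1, Cdk6 and Cdkn1c.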
